A study of Mus musculus with 23 samples.

Results

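Mouse brain cells that carried a little of a dosed antibody, ATV-CD98hc, were compared with cells of the same brains that carried none detectable. An antibody transport vehicle (ATV) is an antibody that binds a receptor on brain capillaries so that it is carried from blood into brain, and ATV-CD98hc binds CD98hc, the protein of the gene Slc3a2. The libraries labelled low for the fluorescence of the dye AF647 (pools 1 and 2) were set against those labelled negative (pools 1 and 2). These are 4 of the 23 libraries of the series. They held 48043 of the 249715 barcodes that passed the filter (500 or more genes and 800 or more UMIs, with mitochondrial UMIs no higher than 10%), and 45161 cells were left once likely doublets were removed.

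CD98hc mu/hu KI mice on a C57BL/6J background, which carry a mouse/human knock-in of CD98hc, received ATV-CD98hc (in the labels DNP02 LALAPG LLB2-10-8 monovalent - Alexa647) at 45 mg/kg by tail vein. The 2 groups set beside them were TfR mu/hu KI mice given ATV-TfR, which binds the transferrin receptor (DNP02_hIgG1_LALAPG_ATV35.23.2 - Alexa647), and C57BL/6 mice without a knock-in given a control IgG (DNP02_hIgG1_LALAPG_Alexa647), both at the same dose. Vehicle and genotype coincide in each of these groups and cannot be told apart. Brains without olfactory bulbs, cerebellum, pons and medulla were collected after perfusion at 24 hours. The mice were 12 weeks old (elsewhere in the labels, 3.3 months). Tissue was broken up into single cells while transcription and translation were blocked, and myelin was removed. Each pool mixed the cells of 1 male and 1 female mouse, so both bins of a pool come from the same 2 mice, and the 2 pools are separate animals. The gates of the low, medium and high bins were set as tertiles of the positive cells in the ATV-TfR mice and used for all groups. Flow cytometry found about 20% of live cells positive with ATV-CD98hc, 30% with ATV-TfR and 1% with control IgG.

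CD98hc is the heavy chain that brings several amino acid exchangers to the cell surface, among them the large neutral amino acid transporter with the light chain Slc7a5 and the cystine-glutamate exchanger with Slc7a11. In brain it is known for its high level on capillary endothelium, and astrocytes and other cells carry it too. Capillary endothelial cells form the blood-brain barrier, pericytes and smooth muscle cells wrap vessels, and astrocytes touch the vessel wall with endfeet rich in the water channel Aqp4. Microglia are the resident phagocytes of the brain and oligodendrocytes make myelin.

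The low libraries held 16972 and 18644 kept cells (pools 1 and 2) and the negative libraries 6286 and 3259. They carried 70787402, 83761215, 32145063 and 14533000 UMIs, with 3236, 3515, 4204 and 3555 UMIs in the median kept cell. The files hold 19092, 21450, 7411 and 4423 barcodes of these libraries, against about 60000 cells sorted for each. Any 2 of the libraries shared 6 to 101 barcode sequences, at most 0.559% of the smaller one. Cells were clustered with those of the ATV-TfR and control IgG low and negative bins, and 44 of 48 clusters were given 1 of 17 names from marker lists. Names end in -like because they rest on rebuilt clusters, and 251 cells (0.556%) of the 4 libraries stayed unnamed. The defining markers were present where a name called for them: the summed level of the 12 astrocyte markers in astrocyte-like cells, for example, was 20870, 20740, 20220 and 20440 CPM (counts per 1e6 UMIs of the class, in the order low 1, low 2, negative 1, negative 2). Libraries are given in that order throughout.

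The first comparison asked which cells were found in the low bin and which in the negative bin. Endothelial-, border macrophage-, oligodendrocyte precursor-, B cell- and neutrophil-like cells took a larger share of the low bin. Smooth muscle-, pericyte-, oligodendrocyte-, dividing, neuron- and ependymal-like cells took a larger share of the negative bin. Of the 17 classes 11 passed the test (64.7%; edgeR quasi-likelihood test on cell numbers, Benjamini-Hochberg adjusted p below 0.05), 5 higher and 6 lower. Astrocyte-like cells were the most numerous class of both bins, with 66.6% and 70.9% of the low and 55.3% and 55.3% of the negative cells. Their shares did not overlap, but the log2 fold change (0.31, SE 0.37, adjusted p = 0.504) did not pass the test.

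Endothelial-like cells made up 13.2% and 13.1% of the low libraries and 1.32% and 1.72% of the negative libraries. The bins did not overlap, and the low bin was higher by 3.12 on the log2 scale (SE 0.43, adjusted p = 2.7e-05). Border macrophage-like cells, the phagocytes of meninges and perivascular spaces, were at 0.336% and 0.317% against 0.0477% and 0.0307% (log2 fold change 2.94, SE 0.62, adjusted p = 0.00113). At the coarser clustering resolution of 1 the border macrophage-like cluster also passed the monocyte or dendritic cell list (9 of 11 markers), and no separate cluster had that name. The log2 fold change of this broader class was 0.81 and was not called. Oligodendrocyte precursor-like cells numbered 78 in the low and 2 in the negative bin, at 0.194% and 0.241% against 0.0318% and 0% (ratio of shares 10.5, exact 95% interval 2.8 to 87.8, counting error only; adjusted p = 0.00522). Neutrophil-like cells numbered 38 against 0, which makes their share at least 3.40-fold higher in the low bin when 3 cells are taken as the floor for the negative bin (adjusted p = 0.0116; 0.062 without negative 1). B cell-like cells were at 0.348% and 0.150% against 0.0636% and 0% (log2 fold change 2.58, SE 0.94, adjusted p = 0.0261). That call was lost without low 1 (1.85), without negative 2 (1.94), without either ATV-TfR negative library (2.59) and with no doublets removed (1.56).

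Mural cells stood at the other end. Smooth muscle-like cells, which line arterioles and arteries, held 0.0354% and 0.0644% of the low bin and 4.06% and 4.27% of the negative bin (log2 fold change -6.34, SE 0.75, adjusted p = 9.4e-06). Pericyte-like cells, which sit on the capillary wall under the same basement membrane as the endothelium, held 0.318% and 0.477% against 5.44% and 8.28% (log2 fold change -4.10, SE 0.50, adjusted p = 9.4e-06). Oligodendrocyte-like cells held 1.41% and 1.05% against 18.5% and 16.8% (log2 fold change -3.84, SE 0.43, adjusted p = 9.4e-06). In each of these classes every low library lay below every negative library by more than 10-fold.

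Dividing cell-like cells numbered 0 and 3 in the low libraries and 24 and 19 in the smaller negative libraries, a ratio of shares of 53.5 toward the negative bin (exact 95% interval 17.1 to 269, counting error only; adjusted p = 3.9e-05). Neuron-like cells, whose cluster was led by Syt1, Cga, Meg3 and Chga and so also holds pituitary genes, numbered 6 and 28 against 13 and 51. Their log2 fold change (-3.14, SE 0.92, adjusted p = 0.00939) was -1.13 and not called without negative 2, and it was also lost without either ATV-TfR negative library (-3.16). Ependymal-like cells held 0.271% and 0.220% against 0.589% and 0.951% (log2 fold change -1.62, SE 0.50, adjusted p = 0.0116), a call that was lost without negative 2 (-1.26) or low 2 (-1.47). Microglia-like cells held 11.7% and 9.69% against 10.5% and 7.61%, and the bins overlapped (log2 fold change 0.23, SE 0.40, adjusted p = 0.612). Choroid plexus epithelial-, monocyte or dendritic cell- and T or NK cell-like shares did not pass the test either, with log2 fold changes of 0.27, 0.10 and 0.48. Fibroblast-like cells held 0.825% and 0.987% against 0.430% and 0.644%. Their log2 fold change of 0.78 (adjusted p = 0.126) was called when the pool was a term in the model (0.79, adjusted p = 0.0213).

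**Figure D1:**
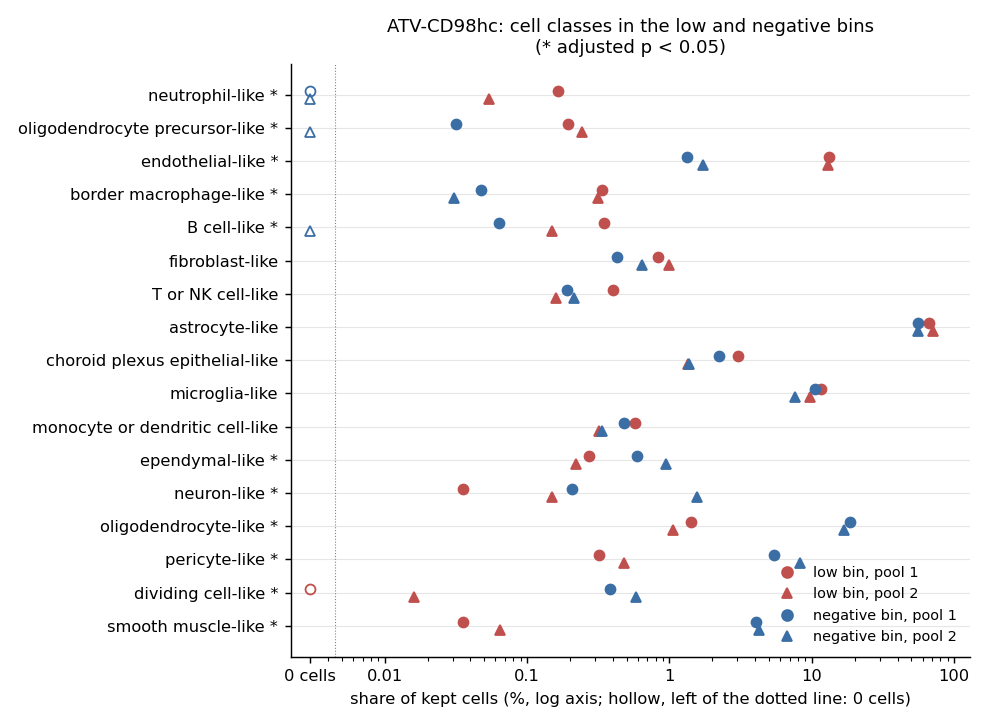
Share of kept cells (percent, log axis) of each of 17 classes in the 2 low and 2 negative libraries of ATV-CD98hc, 1 point per library; a hollow point marks 0 cells and an asterisk an adjusted p below 0.05. Endothelial-like cells sit at 13.2% and 13.1% in the low and 1.32% and 1.72% in the negative libraries, and smooth muscle-like cells at 0.0354% and 0.0644% against 4.06% and 4.27%.

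The same contrast of bins was then set beside that of ATV-TfR, with a test of the difference between the vehicles. It passed for 6 of 17 classes (35.3%). Microglia-like cells were among them and held 2.98% and 2.12% of the ATV-TfR low bin and 33.1% and 23.4% of its negative bin, a log2 fold change of -3.47 where that of ATV-CD98hc was 0.23 (difference 3.70, SE 0.59, adjusted p = 0.00023). Endothelial-like cells held 2.42% and 1.56% against 1.52% and 1.10% with ATV-TfR (0.60 on the log2 scale; difference 2.52, SE 0.58, adjusted p = 0.0041). Fibroblast-like cells were fewer in the ATV-TfR low bin (0.639% and 0.489% against 1.86% and 1.81%) and not in that of ATV-CD98hc (difference 2.48, SE 0.59, adjusted p = 0.0041; 2.19 and not called without ATV-CD98hc negative 1).

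Dividing cell-like cells went opposite ways with the 2 vehicles. With ATV-TfR they numbered 166 and 126 in the low and 26 and 10 in the negative bin (1.94 on the log2 scale; difference -7.56, SE 1.01, adjusted p = 7.2e-05). Astrocyte-like cells held 85.0% and 89.5% of the ATV-TfR low bin and 19.1% and 30.9% of its negative bin (log2 fold change 1.80; difference -1.49, SE 0.53, adjusted p = 0.0407). This difference was lost without each library in turn except ATV-TfR negative 2 and the control IgG libraries, with values of -1.54 to -1.19 where lost. T or NK cell-like cells differed by 2.27 (SE 0.76, adjusted p = 0.0361), a call lost without any 1 of 7 of the 8 libraries (1.47 without low 1). Pericyte- and oligodendrocyte-like shares fell with both vehicles, and the differences of 0.17 (SE 0.64) and -0.68 (SE 0.55) did not pass the test. With the pool as a term, the neuron-, smooth muscle- and monocyte or dendritic cell-like differences were also called (-3.21, -1.68 and 1.52), against adjusted p-values of 0.0775, 0.153 and 0.0776 without it.

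The control IgG low bin, drawn from the 1% of cells that were positive there, had another make-up. Endothelial-like cells held 47.0% and 60.3% of its 2 libraries and astrocyte-like cells 0.473% and 0.522%, while the single negative library had 22.3% and 44.6% of them. Of the 11 classes called with ATV-CD98hc, 7 were called in the same direction with control IgG, where 12 of 17 classes were called (70.6%). Endothelial- (1.26 on the log2 scale), border macrophage- (5.59), B cell- (4.69) and neutrophil-like shares (62 and 49 cells against 0 of 11437, which allows a share of up to 0.0262%) were higher in its low bin. Oligodendrocyte- (-5.29), pericyte- (-4.00) and smooth muscle-like shares (-3.66) were lower. The spread of its 1 negative library was taken to be that of the other groups. The difference between ATV-CD98hc and control IgG passed the test for endothelial-like (1.86, adjusted p = 0.0275) and border macrophage-like shares (-2.66, adjusted p = 0.0462) among these 7.

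**Figure D2:**
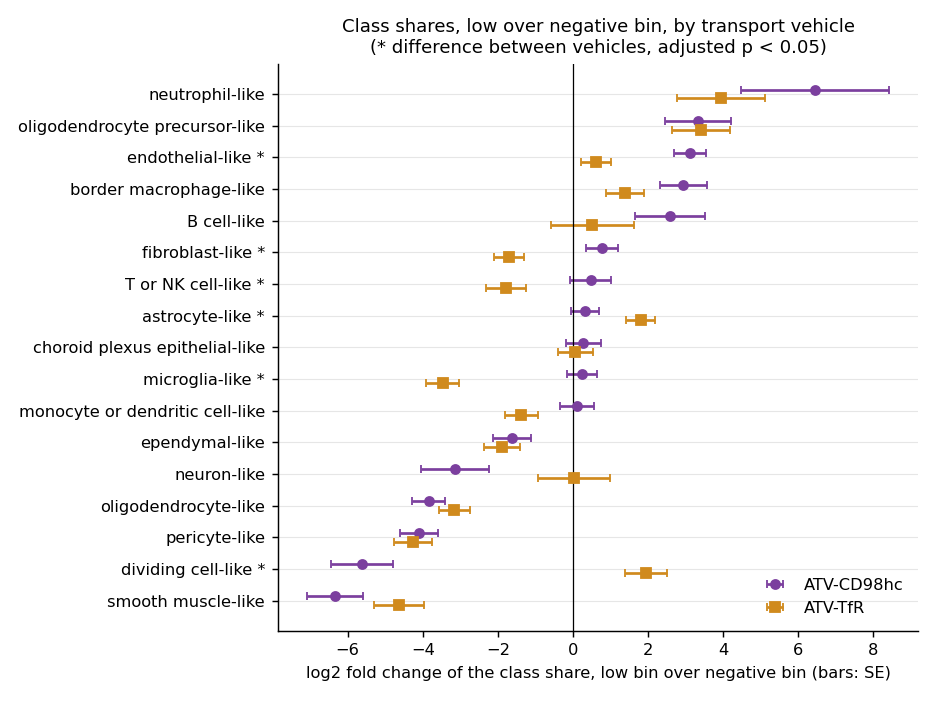
Log2 fold change of each class's share, low over negative bin, with ATV-CD98hc and with ATV-TfR (points, bars are the SE, 2 libraries per bin); an asterisk marks a difference between vehicles with an adjusted p below 0.05. Microglia-like cells lie at 0.23 with ATV-CD98hc and -3.47 with ATV-TfR, and dividing cell-like cells on opposite sides of 0; the dividing cell-like value of ATV-CD98hc rests on 3 cells in its low bin, and the neutrophil-like value of ATV-CD98hc rests on 0 cells in its negative bin and is no estimate of size.

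Expression was then compared within the 8 classes that had at least 20 cells in each of the 4 libraries, on UMIs summed per class and library. In the astrocyte-like class (24523 low and 5282 negative cells) 17671 genes were tested and 533 called (3.02%), 338 higher (1.91%) and 195 lower (1.10%) in the low bin. Many of these are genes of other cells. Of the 338 genes that were higher, 161 (47.6%) were at their highest in microglia-like, 35 in endothelial-like and 34 in neutrophil-like cells. A gene is said here to be at its own level in a class when its mean CPM there is at least 50% of that in the class where it is highest. At their own level 5223 genes were tested, of which 21 were higher (0.402%) and 56 lower (1.07%) in the low bin. When scaling factors and test used only these 5223 genes, 5 were higher and 7 lower.

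RNA of other cell types moved with the bin in the astrocyte-like class. The 10 microglia markers summed to 255 and 238 CPM in the low and 133 and 145 CPM in the negative libraries, and 8 of the 10 were called higher, where 1.91% of all genes tested were. The 10 endothelial markers summed to 37.7 and 36.2 against 7.51 and 11.9 CPM, with 8 called higher. Neutrophil markers stood at 44.1 and 14.4 against 1.16 and 1.48 CPM. Oligodendrocyte markers (212 and 203 against 249 and 291 CPM), neuron markers (36.1 and 36.2 against 52.9 and 61.5 CPM) and smooth muscle markers (9.03 and 9.47 against 23.3 and 32.9 CPM) were higher in the negative libraries. Erythroid markers were at 97.5 and 78.4 CPM in the low bin and at 289 and 1.04 CPM in the negative bin. In the same class 9 of 11 homeostatic microglia genes, 4 of 7 Fc receptor genes and 4 of 10 tight junction genes were higher in the low bin, beside the same 1.91%, and none of these was at its own level. The part of this RNA in the results for genes at their own level was not tested. Mitochondrial UMIs of the median astrocyte-like cell were at 3.13% and 3.19% in the low and 3.09% and 2.64% in the negative libraries, and 450 genes were called in cells with at most 5%. Without the 4 astrocyte-like clusters that carried microglia, neuron or neutrophil RNA, 288 genes were called, and microglia markers were still among those higher.

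Crym, a thyroid hormone-binding protein gene that marks a striatal kind of astrocyte and is also high in tanycytes, was lower in the astrocyte-like cells of the low bin, although it was below its own level there (37.5% of the level in ependymal-like cells). Crym (chromosome 7, 120186380 to 120202111, GRCm38) stood at 14.7 and 19.5 CPM in the low and 170 and 179 CPM in the negative libraries. The negative libraries were both higher, by 9.95-fold in the model (log2 fold change -3.31, SE 0.20, adjusted p = 4.9e-06). With ATV-TfR it was -0.89, and the difference of -2.43 passed the test (adjusted p = 0.00013). The astrocyte-like cluster led by Crym held 0.778% and 0.953% of the low and 5.09% and 6.54% of the negative cells of the class. Within the largest astrocyte-like cluster alone Crym was lower by a log2 fold change of -1.25 and not called (adjusted p = 0.34). Tanycyte markers as a list summed to 74.5 and 92.0 against 241 and 254 CPM. Crym is part of this sum and made up most of the gap between bins, so the sum is no separate result.

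Among genes at their own level, the 12 largest rises included genes of transport, receptors and secreted proteins. Gfap, the intermediate filament of fibrous and reactive astrocytes (chromosome 11, 102887336 to 102900912), was at 49.4 and 49.0 against 27.8 and 25.6 CPM (log2 fold change 0.90, SE 0.18, adjusted p = 0.0156). Agt, angiotensinogen (chromosome 8, 124556534 to 124569706), was at 1130 and 930 against 613 and 624 CPM (0.77, SE 0.13, adjusted p = 0.0045). The rule for named rises required both low libraries to lie above both negative libraries. Slc6a9, the glycine transporter GlyT1 (chromosome 4, 117834506 to 117875198), was at 197 and 182 against 130 and 114 CPM (0.66, SE 0.10, adjusted p = 0.0024). Its log2 fold change with ATV-TfR was 0.01, and the difference of 0.65 was called (adjusted p = 0.0303). Extl1, a glycosyltransferase of heparan sulphate synthesis, was at 36.3 and 34.7 against 23.8 and 20.2 CPM (0.71, SE 0.10, adjusted p = 0.0020). These 2 genes were called without each of the 4 libraries in turn. The other rises were Igsf1 (0.70), Itih3, a hyaluronan-binding secreted protein (778 and 662 against 503 and 444 CPM, 0.64), Paqr6 (0.57), the sodium-activated potassium channel Kcnt1 (0.57), the adenosine receptor Adora1 (0.54), the urea transporter Slc14a1 (0.53), the adrenergic receptor Adra2a (0.51) and the GABA transporter Slc6a11 (1880 and 1749 against 1458 and 1177 CPM, 0.49). Without low 1 the other 10 were not called, and the 12 values were 0.41 to 0.90 (adjusted p of 0.0333 to 0.301). Without low 2, 5 were not called (0.54 to 0.91), and without negative 2, 1 was not (0.36 to 0.87).

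The 12 largest falls at the own level were smaller than that of Crym. Lama3, a chain of basement membrane laminin, was at 29.3 and 44.6 in the low and 69.3 and 80.3 CPM in the negative libraries (log2 fold change -0.97, SE 0.17, adjusted p = 0.0057). Lypd6, a modulator of Wnt signalling and nicotinic receptors (chromosome 2, 50066429 to 50193569), was at 70.4 and 87.0 against 139 and 127 CPM (-0.73, SE 0.11, adjusted p = 0.0026). Rpe65, the retinoid isomerohydrolase, was at 40.6 and 52.7 against 66.0 and 93.2 CPM (-0.72, adjusted p = 0.0237). The rule for named falls required both low libraries to lie below both negative libraries. Of all genes tested in this class 24.1% lay so (16.2% lay above). In the other 7 classes the share below was 19.2% (microglia-like), 18.7% (oligodendrocyte-like), 17.4% (choroid plexus epithelial-like), 19.6% (pericyte-like), 20.3% (endothelial-like), 22.4% (ependymal-like) and 16.0% (fibroblast-like). Fam184b (-0.66), Ankrd29 (-0.62), AA387883 (-0.62), Wdr17 (159 and 187 against 293 and 243 CPM, -0.60), Chrdl1, a secreted BMP antagonist known as an astrocyte signal for synapse maturation (44.3 and 50.9 against 70.0 and 76.8 CPM, -0.59), Fam13c (-0.59), Adam23 (-0.55), Dkk3 (-0.53) and Magi3 (-0.47) made up the rest. None of the 12 was called without low 1, where the values were -0.71 to -0.36 (adjusted p of 0.0522 to 0.279); without low 2 and without negative 2, 1 was not called each time. With ATV-TfR none of these 12 genes was lower with a call, and the difference between vehicles passed the test for 7 of them (340 of all genes tested, 1.92%). Each of these 7 differences, and those of Slc6a9 and Extl1, was lost without 4 or more of the libraries taken 1 at a time, while that of Crym was called each time (-2.82 to -2.06).

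The clusters that made up the astrocyte-like class differed in share between bins. The cluster led by Agt, Itih3, Slc6a11 and Cldn10 held 2.98% and 2.285% of the low and 0.0863% and 0% of the negative cells of the class. Its mean doublet score (times 100) was 12.79, against 6.29 in the largest cluster. It was among the clusters described above as carrying microglia, neuron or neutrophil RNA. A cluster led by Fjx1, Aldoc and Btbd17 held 5.16% and 6.23% of the low and 10.95% and 13.2% of the negative cells of the class. Another, led by Fjx1, Aldoc and Slc1a2 and also carrying microglia, neuron or neutrophil RNA, held 1.38% and 1.42% against 5.84% and 9.04%. The largest over the 4 libraries together, led by the same 3 genes, held 12.6% and 13.6% against 7.76% and 8.65%. Other clusters were larger in low 1 and in both negative libraries. In the largest cluster alone the 12 rises were at log2 fold changes of 0.07 to 2.54 and 5 were called (Slc6a9, Slc6a11, Agt, Itih3 and Igsf1). The 12 falls were at -0.75 to -0.25 there, and 5 were called (Adam23, Lypd6, Magi3, Wdr17 and Lama3). The part of the other clusters in the differences was not tested.

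**Figure D3:**
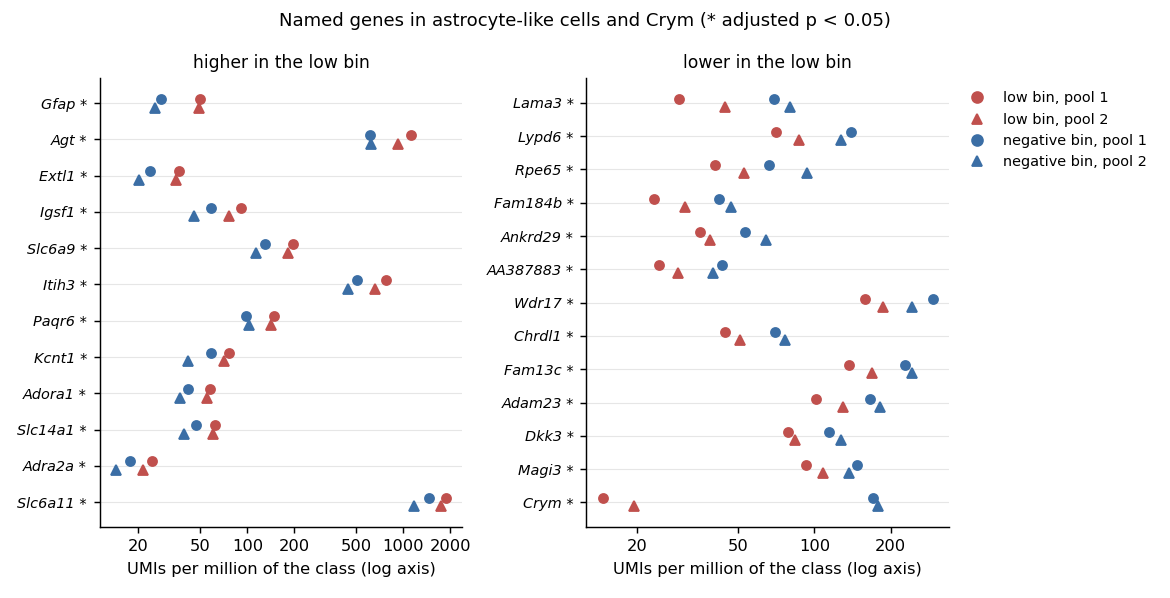
CPM (log axis) in astrocyte-like cells of the 12 largest rises and 12 largest falls among called genes at their own level, and of Crym, in the 2 low and 2 negative libraries, 1 point per library. The 2 low points lie on the same side of the 2 negative points in every gene shown, by construction for the 24 genes of the rule, and Crym has the widest gap (14.7 and 19.5 against 170 and 179 CPM).

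Members of the lists that describe astrocyte functions were counted beside the 3.02% of all genes called in this class. Of 12 endfoot and coupling genes 0 were called by edgeR or DESeq2. At an unadjusted p below 0.05, 4 were higher, as were 1278 of all 17671 genes tested. The median log2 fold change of these 12 endfoot and coupling genes was 0.20, against 0.00 over all genes tested. Aqp4, for example, was at 760 and 685 against 659 and 626 CPM. Of 11 genes for clearance of glutamate, GABA and glycine 2 were higher, Slc6a9 and Slc6a11, with a median of 0.00. The glutamate transporters were not among them, and Slc1a2 was at 5887 and 6356 against 6895 and 6401 CPM. Of 17 reactive astrocyte genes tested 4 were higher: Gfap, Aspg (8.14 and 10.6 against 4.44 and 4.45 CPM), Hspb1 (2.55 and 2.83 against 0.677 and 1.33 CPM) and Serpina3n (4.73 and 4.58 against 2.94 and 1.78 CPM). Gfap was at its own level, but most of the other 3 were below theirs. The part of RNA of other cells in these 4 rises was not tested. Each of these 4 calls was lost without at least 1 library, at log2 fold changes of 0.90 and 0.91 for Gfap (low 1, low 2), 0.91 for Aspg (low 2), 1.68, 1.53 and 1.06 for Hspb1 (low 1, low 2, negative 1) and 0.89, 0.93 and 0.70 for Serpina3n (low 1, low 2, negative 2). Cxcl10 was lower (0.70 and 0.64 against 6.07 and 0.44 CPM), and without negative 1 its log2 fold change turned to 0.63. No member of the stress response, iron, immediate early, interferon, lysosomal or cholesterol synthesis lists was called by edgeR or DESeq2. An unadjusted p below 0.05 was found for 2 to 7 members of each, and for 2534 of all 17671 genes tested. Of 24 oxidative phosphorylation genes 0 were called by edgeR, 1 by DESeq2, and 1 had an unadjusted p below 0.05.

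Genes that mark where in the brain an astrocyte lies were also counted. Of 10 telencephalic patterning genes 2 were lower in the low bin, where 1.10% of all genes tested were (median -0.32). One of them, Lef1, a transcription factor of Wnt signalling, was at 11.3 and 13.4 against 21.8 and 18.7 CPM (-0.70), below its own level. It was not called without low 1 (-0.58) or negative 1 (-0.55). Of 15 diencephalic and midbrain genes 2 were higher, Agt and Itih3 (median 0.21; 1.91% of all genes tested were higher).

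In each of the other 7 classes astrocyte RNA was higher in the low bin. The 12 astrocyte markers summed to 2059 and 2516 CPM in low and 596 and 650 CPM in negative microglia-like cells, with 12 of 12 called higher (6.21% of all genes tested in that class). They summed to 4887 and 5077 against 493 and 714 CPM in oligodendrocyte-like cells (12 of 12; 13.8% of all genes) and to 3623 and 3200 against 775 and 296 CPM in endothelial-like cells (12 of 12; 3.33%). The sums did not overlap between bins in any of the 7 classes. Among all genes tested, the 2 low libraries lay above both negative libraries for 22.6% (microglia-like), 32.8% (oligodendrocyte-like), 25.3% (choroid plexus epithelial-like), 19.8% (pericyte-like), 28.5% (endothelial-like), 24.1% (ependymal-like) and 27.8% (fibroblast-like). Choroid plexus epithelial-like cells had 2262 and 3279 against 794 and 689 CPM (12 of 12; 2.89% of all genes), and pericyte-like cells 6664 and 3555 against 1124 and 1232 CPM (11 of 12; 4.18%). Fibroblast-like cells had 6642 and 5364 against 2563 and 2459 CPM (10 of 12; 2.79%), and ependymal-like cells 6362 and 6323 against 2926 and 2723 CPM (6 of 12; 2.48%). Genes highest in astrocyte-like cells made up 28.9% (oligodendrocyte-like) to 53.4% (endothelial-like) of the genes called higher in these classes. For this reason named genes below are at their own level unless stated otherwise, and what part this RNA has in those results was not tested.

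**Figure D4:**
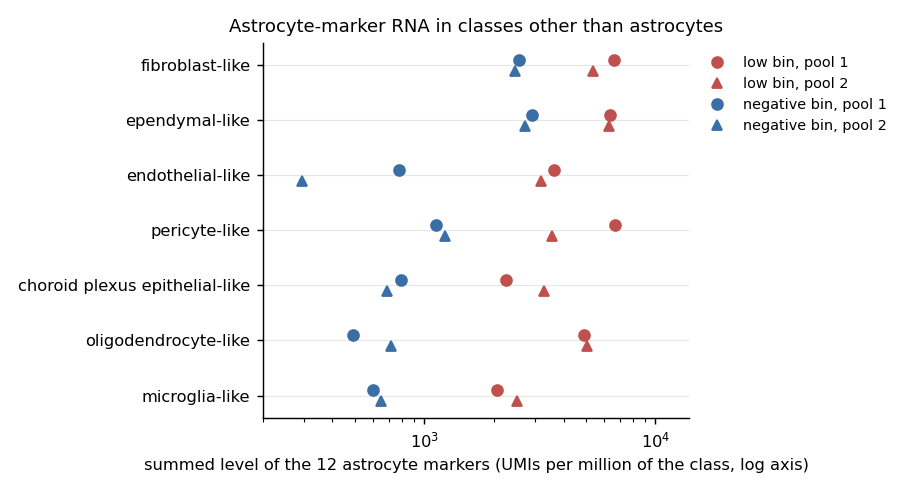
Summed CPM of 12 astrocyte markers (log axis) in the 7 classes other than astrocyte-like, 1 point per library. Every low library lies above both negative libraries in each class, for example at 2059 and 2516 against 596 and 650 CPM in microglia-like cells and at 6362 and 6323 against 2926 and 2723 CPM in ependymal-like cells.

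Microglia-like cells (3790 low, 911 negative) had 874 of 12754 genes called (6.85%), 792 higher (6.21%) and 82 lower (0.643%). Of the 792, 350 were at their highest in astrocyte-like cells, and only 2 were at their own level in microglia (0.0396% of 5048). Of 11 homeostatic microglia genes 0 were called by edgeR or DESeq2, and 0 had an unadjusted p below 0.05 (median -0.13, all genes -0.01), with the purinergic receptor gene P2ry12 at 1939 and 2231 against 2405 and 2519 CPM. Of 23 lysosomal and 8 Fc receptor genes 0 were called by either tool, with 1 and 0 at an unadjusted p below 0.05. Of all 12754 genes tested in this class 2006 had such a p. Axl, a phagocytic receptor kinase, was the 1 gene called of 13 activated microglia genes tested (14.2 and 12.1 against 3.30 and 4.41 CPM). It was below its own level, and its call was lost without low 1 (1.78) or negative 1 (1.56). The 2 rises were Fam110a (63.6 and 60.4 against 32.5 and 48.5 CPM, 0.74) and the syntaxin gene Stx4a (99.7 and 96.8 against 70.2 and 63.2 CPM, 0.54). At the own level 0.456% were lower, and the 12 falls named by the rule were Adat1, Prdm1, Zfp830, Lysmd4, P2ry10b, Zfp942, Gabpb1, Pla2g4a, Itgb3, Acvr2a, Abhd17c and Dhx9. Pla2g4a, a phospholipase that releases arachidonic acid, was at 166 and 164 against 260 and 222 CPM (-0.57, SE 0.15, adjusted p = 0.0134). Each of the 14 lost its call without at least 1 of the 4 libraries, and without negative 1 the rises were 0.34 to 0.63 and the falls -0.72 to -0.15. With the pool as a term Itgb3 (-0.54, adjusted p = 0.060), Acvr2a (-0.49, adjusted p = 0.094) and Abhd17c (-0.53, adjusted p = 0.059) were not called. With only genes at their own level in scaling and test, 0 of 5048 were called by edgeR (279 at an unadjusted p below 0.05). In this class 0 of 12754 genes differed from ATV-TfR in edgeR (0.00%), with 575 of the 12754 at an unadjusted p below 0.05. With the pool as a term 33 differed, and the difference was not run in DESeq2.

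Oligodendrocyte-like cells (435 low, 1709 negative) had the largest share of genes called of the 8 classes, 2371 of 12208 (19.4%), 1680 higher (13.8%) and 691 lower (5.66%). At the own level 36 were higher (0.918%) and 404 lower (10.3%) of 3922, and with only those genes in scaling and test 48 were higher and 37 lower. Mitochondrial UMIs of the median cell differed between bins in this class (3.43% and 3.43% in the low, 4.45% and 4.09% in the negative libraries). In cells with at most 5% of them 1867 genes were called. Of the cells whose sex could be read from their RNA, 40.85% and 44.0% were male in the low and 56.0% and 56.5% in the negative libraries. In male cells alone 1104 genes were called and in female cells alone 798. The largest cluster of the class held 59.8% and 50% of the low and 77.8% and 78.8% of the negative cells. A cluster led by Slc24a2 and St18 held 28.9% and 36.2% against 5.34% and 4.01%. At Leiden resolution 1 a cluster led by the same genes was left unnamed, because 7 of 12 astrocyte markers were detected in it as well. In the largest cluster alone 1357 genes were called. Tac1, the precursor of substance P (chromosome 6, 7554879 to 7565834), was at 36.8 and 25.8 against 1.75 and 2.00 CPM (log2 fold change 3.97, SE 0.42, adjusted p = 1.1e-06). Ctps, a CTP synthase (chromosome 4, 120539868 to 120570276), was at 168 and 102 against 23.3 and 31.5 CPM (2.23, SE 0.23, adjusted p = 8.4e-07). Fam214a (212 and 261 against 63.6 and 47.9 CPM, 1.93) and Depdc1b (21.9 and 29.6 against 7.31 and 6.39 CPM, 1.74) were the other named rises. All 4 were called without each of the 4 libraries in turn.

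Hcn2, a pacemaker channel that oligodendrocytes carry (chromosome 10, 79716634 to 79736108), was at 54.8 and 63.1 in low and 208 and 235 CPM in negative oligodendrocyte-like cells (-2.04, SE 0.19, adjusted p = 2.4e-07). With ATV-TfR its log2 fold change was -0.06, and the difference of -1.98 passed the test (adjusted p = 0.0011), as did that of the proteoglycan gene Spock1 (97.0 and 94.6 against 315 and 241 CPM, -1.67; difference -1.14, adjusted p = 0.0498, lost without 7 of 9 libraries in turn). In all 59 of 12208 genes differed between vehicles (0.483%), 12 without low 2 and 106 with the pool as a term. The glutathione transferase Gstp1 (69.6 and 118 against 186 and 295 CPM, -1.50) and Pter (-1.27) were the other named falls, and both were lost without low 1 (Gstp1 -1.17, adjusted p = 0.096; Pter -1.27, adjusted p = 0.075), Pter also without low 2 (-1.29).

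Lipid and iron genes of oligodendrocyte-like cells moved in part. RNA of microglia and endothelium moved with the bin in this class as well: the 10 microglia markers summed to 187 and 257 against 103 and 109 CPM and the 10 endothelial markers to 167 and 332 against 11.4 and 9.18 CPM, each with 9 of 10 called higher. The part of this RNA in the results of the class was not tested. Of 14 cholesterol synthesis genes 7 were higher and 0 lower in the low bin (median 0.52, all genes -0.05), 4 of them at their own level, in a class where 13.8% of all genes were higher. Cyp51, a demethylase of the pathway, was at 184 and 160 against 96.1 and 93.8 CPM (0.73, adjusted p = 0.0026). Hmgcs1 was at 325 and 288 against 182 and 182 CPM (0.62) and Sqle at 83.7 and 79.3 against 34.9 and 42.7 CPM (0.97). Without low 1 Cyp51 (0.60) and Hmgcs1 (0.51) were not called. No member differed from ATV-TfR. In microglia-like cells 7 of the 14 were higher too, none at its own level (6.21% of all genes there). Of 10 myelin genes 1 was lower (5.66% of all genes were), Ermn (1228 and 1160 against 1613 and 1587 CPM, -0.55), and Mbp (-0.33), myelin basic protein, was not called. Of 10 iron genes 3 were lower (against the same 5.66%), among them transferrin, Trf, which oligodendrocytes make in brain (2652 and 2975 against 3757 and 4668 CPM, -0.72, adjusted p = 0.0063), and ferritin heavy chain, Fth1 (14520 and 14600 against 18910 and 23080 CPM, -0.66). These and Ermn were not called without low 1 (-0.65, -0.67 and -0.61), without low 2 (-0.82, -0.68 and -0.53) or with only genes at their own level in scaling and test (-0.50, -0.44 and -0.33). Another 3 were higher, Slc40a1, Steap3 and Heph, none at its own level. Of 10 amino acid carriers that work without CD98hc 4 were higher (Slc7a1, Slc7a2, Slc38a3 and Slc1a4, none at its own level) and 2 lower (Slc1a5 and Slc38a2), with a median of 0.96. Slc7a1 was lost without low 1, low 2 or negative 2 and Slc1a5 without low 1. Slc38a2, a carrier of glutamine and alanine, was at 194 and 187 against 323 and 367 CPM (-0.98, adjusted p = 0.00065), and the serine synthesis enzyme Psat1, 1 of 2 genes lower (1 was higher) of 11 in the amino acid stress response list, at 164 and 167 against 285 and 234 CPM (-0.78). Both were called without each library, and in the fit on genes at their own level Psat1 was not (-0.57).

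Endothelial-like cells (4683 low, 139 negative, of which 83 and 56 in the 2 libraries) had 613 of 11965 genes called (5.12%), 399 higher (3.33%) and 214 lower (1.79%), and at the own level 10 higher (0.220%) and 99 lower (2.18%) of 4549. With only those genes in scaling and test 8 were higher and 44 lower. Arterial genes were lower in the low bin: 8 of 13 were called lower and 0 higher, with a median log2 fold change of -0.91 against 0.04 over all genes. Vegfc, a growth factor of arterial and lymphatic endothelium (chromosome 8, 54077606 to 54187096), was at 123 and 143 against 507 and 330 CPM (-1.67, SE 0.21, adjusted p = 2.8e-06). With ATV-TfR it was -0.22, and the difference of -1.46 passed the test (adjusted p = 0.0177; lost without 4 of 11 libraries in turn, at -1.41 to -1.07). The connexin gene Gja4 was at 24.3 and 35.0 against 80.5 and 139 CPM (-1.76, SE 0.32, adjusted p = 0.00044). These 2 were called without each of the 4 libraries. Gkn3 (414 and 538 against 763 and 1993 CPM, -1.49), Mgp (348 and 384 against 638 and 1257 CPM, -1.33), Bmx (-1.08), Sema3g (-0.94), Stmn2 (-0.91) and Tm4sf1 (-0.67) were also lower. Without negative 2 Gkn3 was at -0.62, Mgp at -0.74 and Bmx at -0.90, and Sema3g was at -0.56 without negative 1, -0.94 without low 1 and -0.92 without low 2, none of them called. Stmn2 (-0.83 without low 2, -0.74 without negative 2) and Tm4sf1 (-0.56, -0.78 and -0.37 without low 1, low 2 and negative 2) also lost their calls.

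The median mitochondrial share of endothelial-like cells was 1.48% and 1.46% in the low and 2.24% and 1.93% in the negative libraries, and 553 genes were called in cells with at most 5%. The clusters that made up the class differed between bins. The cluster led by Gkn3 held 29.4% and 27.1% of its low and 60.2% and 50% of its negative cells, the cluster led by Plvap 2.50% and 2.50% against 9.64% and 12.5%, and the largest cluster of the low bin 63.3% and 65.1% against 22.9% and 28.6%. Smooth muscle markers summed to 73.5 and 62.1 CPM in the low and 727 and 157 CPM in the negative endothelial-like cells, with 6 of 7 called lower (1.79% of all genes were), Acta2 at 0 in negative 2 and Cnn1 at 0 in all 4 libraries. Without negative 1 Acta2 and Tagln, both at 0 in negative 2, and Myl9 (0.71) turned direction and were not called. Erythroid markers were at 1.15 and 413 against 4574 and 0 CPM. The part of these cells and RNAs in the arterial difference was not tested.

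Of 11 venous genes 2 were lower, where 1.79% of all genes were: Il1r1 (17.2 and 21.6 against 56.6 and 63.7 CPM, -1.58; not called without negative 1, -1.67, or negative 2, -1.47) and Vcam1 (73.0 and 81.7 against 107 and 284 CPM, -1.18; not called without low 1, -1.10, or negative 2, -0.41). Plvap, which marks fenestrated and leaky vessels, was at 86.8 and 94.6 against 188 and 435 CPM (-1.67, adjusted p = 0.0027 in edgeR). It was at -0.99 without negative 2 and was not called by DESeq2. With ATV-TfR its log2 fold change was -1.79. Piezo2, a mechanically gated channel, was at 11.2 and 11.5 against 68.5 and 104 CPM (-2.83, SE 0.39, adjusted p = 1.5e-05), called without each library, and was at -2.21 with ATV-TfR. Slc12a8 (-2.73 without negative 1) and Ssu2 (-1.82 without negative 1), neither called there, were other named falls, and the globin gene Hbb-y was named by the rule for 365 CPM in negative 2 alone (-0.69 without that library).

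Barrier genes of endothelial-like cells were counted beside the 5.12% of all genes called in this class. Of 9 tight junction genes 0 were called by edgeR or DESeq2 and 0 had an unadjusted p below 0.05, where 1821 of all 11965 genes had. Of 15 barrier transport genes 2 were higher (Mfsd2a and Lrp1) and 1 lower (Plvap), and DESeq2 called 0 of the 15 lower. Mfsd2a, the lysolipid carrier that marks barrier capillaries (chromosome 4, 122946850 to 122961188), was at 167 and 227 against 98.3 and 122 CPM (0.90, SE 0.25, adjusted p = 0.029), and was lost without low 2 (0.65) or negative 1 (0.74). Glucose transporter Slc2a1 (0.07) and Cldn5 (0.17) were not called. Among the 4 named rises Ctla2a, a cathepsin inhibitor gene (chromosome 13, 60934155 to 60936625), was at 593 and 656 against 253 and 330 CPM (1.14, SE 0.24, adjusted p = 0.0026). With ATV-TfR it was -0.91, and the difference of 2.05 passed the test (adjusted p = 0.0034), 1 of 21 genes that did (0.176%); it was lost without ATV-TfR negative 1 (1.62, adjusted p = 0.081). With the pool as a term 66 genes differed. The others were Slc26a10 (180 and 152 against 59.6 and 69.5 CPM, 1.41), Trim16 (57.4 and 56.2 against 29.8 and 11.6 CPM, 1.30) and the glutamine carrier Slc38a3 (136 and 153 against 47.7 and 104 CPM, 1.10). None of the 4 was called without negative 1, where Ctla2a was at 0.96 (adjusted p = 0.11) and Slc38a3 at 0.51.

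**Figure D5:**
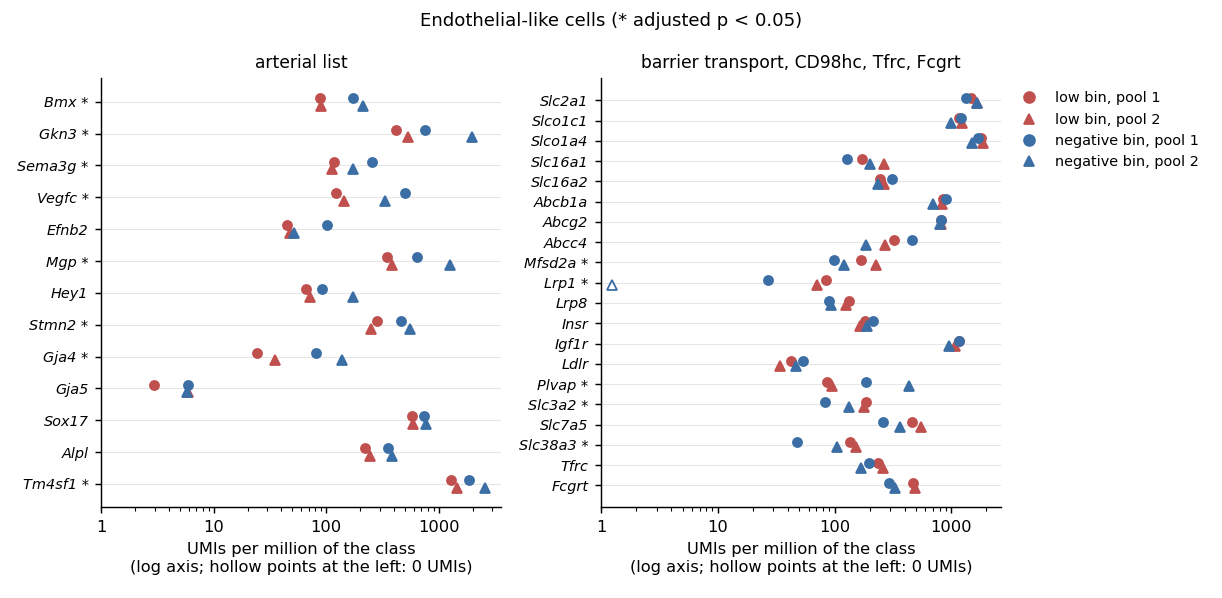
CPM (log axis) in endothelial-like cells of the arterial list, the barrier transport list and Slc3a2, Slc7a5, Slc38a3, Tfrc and Fcgrt in the 2 low and 2 negative libraries, 1 point per library; the negative points rest on 83 and 56 cells. Vegfc lies at 123 and 143 in the low and 507 and 330 CPM in the negative libraries, and Mfsd2a at 167 and 227 against 98.3 and 122 CPM.

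Slc3a2, which encodes the receptor bound by the vehicle (chromosome 19, 8706882 to 8723369), was followed through the 8 classes. In these mice the gene is a mouse/human knock-in, and which of its transcripts the reference counts is not given in the sources used here. In endothelial-like cells Slc3a2 was at 186 and 179 CPM in the low and 83.4 and 133 CPM in the negative libraries (log2 fold change 0.85, SE 0.25, adjusted p = 0.0426). The call was lost without negative 1 (0.49, adjusted p = 0.646), low 1 (0.83, adjusted p = 0.151) or low 2 (0.87, adjusted p = 0.117), or without control IgG negative 2 (0.83, adjusted p = 0.051). Its main partner at the barrier, Slc7a5, was at 463 and 555 against 259 and 365 CPM and was not called (0.76, adjusted p = 0.085). Neither were Tfrc, the receptor of the other vehicle (236 and 259 against 197 and 168 CPM, 0.44), and the neonatal Fc receptor gene Fcgrt (466 and 485 against 295 and 330 CPM, 0.64, adjusted p = 0.078). Low libraries lay above negative libraries for all 4 of these genes, as for 28.5% of all genes tested in this class, and Slc3a2 was the 1 of the 4 that was called.

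Outside the endothelium Slc3a2 was called higher in choroid plexus epithelial-like cells (59.0 and 60.1 against 31.9 and 18.1 CPM, 1.06, SE 0.26, adjusted p = 0.0158) and oligodendrocyte-like cells (62.6 and 54.5 against 23.1 and 34.3 CPM, 0.96, adjusted p = 0.0107). In both it was below its own level. The choroid plexus call was lost without low 1 (1.05), negative 1 (1.69) or negative 2 (0.84), and the oligodendrocyte call without low 1 (0.83), low 2 (1.03) or negative 1 (0.63). Astrocyte-like cells, the bulk of the low bin, had 164 and 137 against 123 and 150 CPM, and the bins overlapped (0.18, adjusted p = 0.564). Microglia-like cells had 123 and 119 against 89.0 and 134 CPM (0.19, adjusted p = 0.666), pericyte-like cells 73.3 and 64.1 against 67.2 and 96.0 CPM (-0.27, adjusted p = 0.85), and fibroblast-like cells 220 and 294 against 212 and 289 CPM (0.17, adjusted p = 0.885). Ependymal-like cells had 58.3 and 54.4 against 18.6 and 31.5 CPM, with no overlap, and were not called (1.22, adjusted p = 0.158).

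The list of CD98hc and its light chains holds 7 genes, and in the other 7 classes its called members were all higher in the low bin. In astrocyte-like cells these were Slc7a7 and Slc7a8 (2 of 7, where 1.91% of all genes were higher). Slc7a10, a carrier of small neutral amino acids that is highest in astrocyte-like cells, and Slc7a11 were called in microglia-like (2 of 7; 6.21% of all genes) and pericyte-like cells (2 of 4; 4.18%). Both were called with Slc3a2 in endothelial-like cells (3 of 7; 3.33%), and with Slc3a2 and Slc7a5 in oligodendrocyte-like cells (4 of 6; 13.8%). Slc7a10 was the member called in ependymal-like (1 of 6, beside 2.48%) and fibroblast-like cells (1 of 6, beside 2.79%). DESeq2 called 0 members of the list in ependymal-like cells. Of all these calls only that of Slc3a2 in endothelial-like cells was at the own level. Slc7a8 was at 6.48 and 5.65 against 2.32 and 1.63 CPM in astrocyte-like cells (1.57, adjusted p = 0.0053; lost without low 1, 1.47), 1.06% of its level in microglia-like cells, and differed from ATV-TfR by 2.74 (adjusted p = 0.0017). Slc7a7 was at 5.47 and 5.52 against 2.12 and 3.71 CPM there (1.08) and was lost without low 1 (1.07), low 2 (1.06) or negative 1 (0.61). Slc7a10 in fibroblast-like cells was lost without negative 1 (2.20) and Slc7a11 in endothelial-like cells without negative 2 (1.29).

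Choroid plexus epithelial-like cells (770 low, 186 negative) make cerebrospinal fluid and had 443 of 11825 genes called (3.75%), 342 higher (2.89%) and 101 lower (0.854%). At the own level 0 of 2734 genes were higher (0.00%), 0 by DESeq2 and 17 at an unadjusted p below 0.05, and 16 were lower (0.585%). With only those genes in scaling and test 0 were higher and 2 lower. Microglia RNA moved with the bin in this class too: of 10 homeostatic microglia genes 7 were higher (3 by DESeq2), where 2.89% of all genes were. The part of this RNA in the results of the class was not tested. Htr2c, the serotonin receptor of this epithelium (chromosome X, 146962513 to 147197277), was at 231 and 376 against 863 and 671 CPM (-1.41, SE 0.20, adjusted p = 8.2e-05), and was at -1.48 with ATV-TfR. A small cluster led by Htr2c held 0.774% and 1.98% of the low and 7.09% and 6.67% of the negative cells of the class, and in the large cluster alone Htr2c was at 0.18. Otx2os1, a transcript beside Otx2, was at 65.2 and 90.2 against 176 and 168 CPM (-1.22, SE 0.18, adjusted p = 0.00012). Both were called without each library in turn. The inositol carrier Slc5a3 (-1.26) and Arhgap28 (-1.21) were the other named falls, and each was lost without low 1 (-1.08 and -1.23) or negative 1 (-1.53 and -1.23). The defining gene Ttr was not called (-0.12). Of 7 CD98hc chains 3 were higher: Slc3a2, Slc7a11 (51.3 and 69.1 against 22.6 and 9.02 CPM, 1.60) and Slc7a5, which had 34 and 32 UMIs in the low and 1 and 0 in the negative libraries (adjusted p = 0.0195). None of the 3 was at its own level. Slc7a11 (1.44, 2.67 and 1.31) and Slc7a5 lost their calls without low 2, negative 1 or negative 2.

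Pericyte-like cells (143 low, 612 negative) had 458 of 10297 genes called (4.45%), 430 higher (4.18%), of which 220 were highest in astrocyte-like cells, and 28 lower (0.272%). At their own level 0 were higher in edgeR (0.00%; 0 in DESeq2, 48 at an unadjusted p below 0.05) and 12 lower (0.266%) of 4503, and with only those genes in scaling and test 0 were higher and 1 lower. The largest named fall was Sfrp2, a secreted Wnt modulator (chromosome 3, 83766321 to 83774316), with 2 and 1 UMIs in the low and 53 and 46 in the negative libraries, 8.76-fold more per UMI of the class (exact 95% interval 2.91 to 43.2, counting error only; adjusted p = 0.00027). Shld2 (-1.61), Nts, the neurotensin precursor (73.3 and 107 against 129 and 358 CPM, -1.41), and the basement membrane collagen Col4a3 (33.3 and 51.3 against 128 and 87.4 CPM, -1.34) followed. None of the 4 was called without low 2, where the values were -2.38 to -1.39 (adjusted p of 0.108 to 0.327). Without low 1, 3 were not called (-1.78 to -1.12), and without negative 1 and negative 2, 2 and 1. A single gene of 10297 differed from ATV-TfR (0.00971%), and 11 with the pool as a term.

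Ependymal-like cells came from 1 cluster (46 and 41 low, 37 and 31 negative cells) and had 536 of 9440 genes called (5.68%), 234 higher (2.48%) and 302 lower (3.20%), 37 (0.870%) and 242 (5.69%) of these at their own level. With only genes at their own level in scaling and test 67 were higher and 125 lower. The median mitochondrial share was 2.60% and 2.57% against 2.76% and 2.89%, and 561 genes were called in cells with at most 5%. The cluster held markers of ependymal cells (5707 and 6518 against 7753 and 9316 CPM in sum) and of tanycytes, their hypothalamic relatives (1672 and 2201 against 674 and 523 CPM). The part of a different mix of these cells in the results of the class was not tested. Of the 7 tanycyte markers 4 were higher and 0 lower. Rax, the tanycyte transcription factor, had 44 and 28 UMIs against 6 and 2 (160 and 102 against 27.9 and 12.6 CPM, 2.60, adjusted p = 0.0151). Col23a1 was at 612 and 591 against 256 and 164 CPM (1.49, SE 0.24, adjusted p = 0.00013), and Crym at 415 and 344 against 163 and 81.9 CPM (1.58), while it was lower in astrocyte-like cells of the same bin. Col25a1 had 47 and 136 UMIs against 0 and 1. The Col23a1 call held without each library, that of Rax was lost without low 1 (2.23), negative 1 (3.34) or negative 2 (2.22), and that of Crym without low 1 (1.44) or negative 2 (1.23). Of 8 ependymal markers 2 were lower, Foxj1, the master factor of motile cilia (259 and 239 against 437 and 422 CPM, -0.78), and Tmem212 (1191 and 1425 against 1923 and 2225 CPM, -0.66). Neither was called without low 1 (-0.85 and -0.54) or low 2 (-0.74 and -0.81), Foxj1 also without negative 1 (-0.77) and Tmem212 without negative 2 (-0.55). Unc5cl was at 65.6 and 36.3 against 432 and 322 CPM (-2.90, SE 0.30, adjusted p = 1.7e-07), and the formin gene Fhod3 had 3 and 8 UMIs against 30 and 23 (-2.81). Both were called without each library. Anxa8 had 0 and 1 UMIs against 8 and 7, and Olah 2 and 1 against 15 and 3, ratios toward the negative bin of 22.1 and 8.83 with exact 95% intervals of 3.4 to 930 and 2.58 to 46.8. Anxa8 lost its call without low 1 or negative 1, and Olah without low 1 or low 2. Deptor (16 and 24 against 3 and 0 UMIs), an inhibitor of mTOR, Mest (12 and 19 against 2 and 0) and Naprt (14 and 11 against 0 and 2) were the other named rises beside Col25a1. Their ratios were 9.06, 10.5 and 8.49, with lower bounds of 2.88, 2.68 and 2.12. None of the 4 named rises was called without low 2.

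Fibroblast-like cells (324 low; 27 and 21 negative) had 376 of 11308 genes called (3.33%), 316 higher (2.79%) and 60 lower (0.531%), 15 (0.334%) and 49 (1.09%) of them at their own level. With only genes at their own level in scaling and test 7 were higher and 5 lower. Of the cells whose sex could be read from their RNA, 53.4% and 53.0% were male in the low and 39.1% and 28.6% in the negative libraries. The part of this in the results of the class was not tested. The class held 2 clusters, and the smaller, led by Coch and Cemip, had 12.9% and 10.3% of the low and 3.70% and 0% of the negative cells. In the larger cluster alone Spp1 (-1.20), Dcn (-1.04), Fbln2 (-1.66) and Rbp4 (3.84) were called. Moxd1 (adjusted p = 0.303), Abi3bp (adjusted p = 0.064) and Matn2 (adjusted p = 0.321) were not. Spp1, osteopontin (chromosome 5, 104435118 to 104441050), was at 1913 and 1629 in the low and 4135 and 4972 CPM in the negative libraries (-1.29, SE 0.26, adjusted p = 0.00054), called without each library. With ATV-TfR the fall was -2.65, and the difference of 1.36 passed the test (adjusted p = 0.018; lost without 4 of 11 libraries in turn, at 1.10 to 1.31), as for 292 of 11308 genes (2.58%; 179 without negative 1). The matrix genes Dcn (3112 and 3792 against 7396 and 7812 CPM, -1.06) and Fbln2 (96.7 and 81.1 against 389 and 263 CPM, -1.82) were lower too. Dcn was lost without low 1 (-0.96) or low 2 (-1.24), and Fbln2 was lost without negative 1 (-1.65, adjusted p = 0.051) and differed from ATV-TfR by 1.68 (lost without 3 of 11 libraries in turn, at 1.42 to 1.58). The chemokine gene Ccl11, Ccdc43 and St8sia1 were the other named falls, and none was called without negative 1 (-3.46 to -1.47 with Fbln2). The 4 named rises rest on almost no UMIs in the negative bin. Rbp4, the plasma retinol carrier (chromosome 19, 38116629 to 38125281), had 194 and 167 UMIs against 3 and 0, a ratio of 14.3 (exact 95% interval 4.85 to 69.5, counting error only; adjusted p = 7.8e-06), and was not called when doublets were kept (log2 fold change 0.81). Moxd1 had 130 and 132 against 3 and 0 (ratio 10.4, exact 95% interval 3.51 to 50.6) and Abi3bp 45 and 51 against 1 and 0 (ratio 11.4, exact 95% interval 2.00 to 454). Matn2 had 27 and 30 against 0 and 0, at least 2.25-fold higher over a floor of 3 UMIs in the negative bin. Abi3bp and Matn2 were not called without either negative library.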

How the data were processed

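Values are deposited UMI counts, whole numbers for each gene in each cell barcode, which the authors made with Cell Ranger 7.1.0 and Seurat (4 and 5) according to the submitters' processing notes, which give no role for either. Other deposited files hold barcodes, gene names and the library of each barcode. Barcodes were kept with 500 or more genes and 800 or more UMIs and with mitochondrial UMIs no higher than 10%, and the 6% with the highest Scrublet scores in each library were removed as likely doublets. The 11 low and negative libraries of the ATV-CD98hc, ATV-TfR and control IgG groups (109204 cells) were clustered together with scanpy 1.11.5 (2000 variable genes, 50 principal components, 15 neighbours, Leiden resolution 2; leidenalg 0.10.2). A cluster was named when at least 50% of a marker list and at least 3 markers were detected in it, each in at least 5% of cells and at 25% of its highest cluster. The fold that ranks a cluster's leading genes was taken against clusters led by other marker lists, a choice made after seeing the data.

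Cell numbers per class, and UMIs summed per class and library with at least 20 cells, were tested with edgeR 4.0.16 (quasi-likelihood test, 1 mean per group). TMM scaling and filterByExpr were used for expression alone. Cell numbers were set against all kept cells of the library, without further scaling. All libraries in a test shared 1 estimate of spread, 11 for cell numbers and 9 to 11 for expression (9 for astrocyte-, oligodendrocyte- and pericyte-like, 10 for ependymal-like and 11 for the other 4 classes). Benjamini-Hochberg adjustment was over all classes or all genes tested, with a threshold of 0.05. The SE is the log2 fold change over the square root of F. CPM values are plain and not TMM-scaled. DESeq2 1.42.0 was an alternative, as were other scaling, filters, doublet settings, clustering, sex of the cells and leaving out each library. The scripts were tested on simulated data. Of genes given a log2 change of 1 there, 100% were called in astrocyte-, 94% in microglia- and 79% in oligodendrocyte-like cells. In choroid plexus epithelial-like cells 68% were called, and in endothelial-like cells 45%. Ependymal-, pericyte- and fibroblast-like cells had 22.2%, 20% and 10%. A gene not called in these classes may still have changed. Both bins of a pool come from the same mice, so the pool numbers pair the libraries by design. In the expression residuals same-pool correlations ran from -0.233 (astrocyte-like) to 0.0984 (microglia-like), with 4 to 5 residual degrees of freedom.

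Genes named in the text were the 12 largest rises and falls in astrocyte- and microglia-like cells and the 4 largest in other classes among called genes at their own level, with at least 20 CPM in the higher bin and both low libraries on the same side of both negative libraries, leaving out Gm- and Rik-type, mitochondrial, ribosomal and sex-specific genes. Members of 26 fixed gene lists and 22 marker lists were also named. The comparison, the members and the lists were chosen with earlier results of these data known. Coordinates are those of the GRCm38 annotation. The medium and high bins were not used here. Values of a few list members are not reported here. Exact intervals cover counting error only.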

Additional observations from a re-analysis of the deposited data

Results flagged for a closer look

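Each result here is a log2 difference between the low minus negative change with ATV-CD98hc and that with ATV-TfR that passed the test of the difference (edgeR, adjusted over all classes or genes of a class). Vehicle and genotype cannot be told apart in any of them. Among cell shares, the difference was 3.70 for microglia-like, 2.52 for endothelial-like, 2.48 for fibroblast-like, 2.27 for T or NK cell-like, -1.49 for astrocyte-like and -7.56 for dividing cell-like cells. The last rests on 3 dividing cells in the ATV-CD98hc low bin. All of these are differences in shares of all kept cells, and they were not tested over cells outside the astrocyte-like class.

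In astrocyte-like cells 7 named falls differed: Lama3 by -1.13, Rpe65 by -1.12, Lypd6 by -0.86, AA387883 by -0.80, Ankrd29 by -0.79, Fam13c by -0.72 and Chrdl1 by -0.63. Of the named rises Extl1 differed by 0.75 and Slc6a9 by 0.65. In oligodendrocyte-like cells Hcn2 differed by -1.98 and Spock1 by -1.14. Ctla2a differed by 2.05 in endothelial-like cells. In fibroblast-like cells Fbln2 differed by 1.68, and Rbp4 by 4.30, which rests on 3 UMIs in the ATV-CD98hc negative bin.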

How the results depend on the processing

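Leaving out 1 library at a time left 8 to 11 class shares called (11 with all) and 4 to 8 differences from ATV-TfR (6 with all). Neutrophil-like values in this paragraph are fitted over 0 cells in the negative bin and are no estimates of size. In female cells alone 6 were called, without the B cell- (5.93), ependymal- (-1.76), neuron- (-2.48), neutrophil- (4.14) and oligodendrocyte precursor-like (2.69) shares. With the 4 ATV-CD98hc libraries alone the B cell- (2.60), neuron- (-3.17) and neutrophil-like (6.63) shares were not called. In male cells alone the B cell- (0.64) and neutrophil-like (3.87) shares were not, and the fibroblast-like share was (1.55), as it was with RLE scaling (1.07) or over cells that were not astrocyte-like (1.32). The B cell-like share was also lost with the automatic doublet threshold (1.52).

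With the pool as a term (the replicate block, which pairs bins of the same mice) fibroblast-like shares were also called (0.79). Genes that differed from ATV-TfR were 33 for microglia- (0 without the block), 106 for oligodendrocyte- (59), 11 for pericyte- (1), 66 for endothelial- (21) and 139 for ependymal-like cells (70). Of 624 single genes followed, 16 low minus negative calls were lost and 2 gained, and 0 differences were lost and 31 gained. Without 1 library at a time the genes that differed were 629 to 938 in all 8 classes (873), 189 to 626 for astrocyte- (340), 0 to 8 for microglia-, 12 to 61 for oligodendrocyte-, 29 to 117 for choroid plexus epithelial- (90), 0 to 6 for pericyte-, 10 to 41 for endothelial-, 24 to 95 for ependymal- and 179 to 300 for fibroblast-like cells (292). Of 19 called gene differences printed, 15 were lost without at least 1 library. Those of Crym, Hcn2, Rbp4 and Slc7a8 (2.29 to 3.15) were not. Crym and Slc7a8 were below their own level in astrocyte-like cells, where 16 of the 340 genes that differed were at theirs. Of 11 homeostatic microglia genes 9 differed in astrocyte-like cells (1.92% of all genes did). In choroid plexus epithelial-like cells 8 of 10 did (0.761%), and in oligodendrocyte-like cells 6 of 11 (0.483%). The part of RNA of other cells in the differences was not tested.

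Counts of called genes moved more. With genes at their own level alone they were 12 for astrocyte-like (533 in the main test), 0 for microglia-like (874), 85 for oligodendrocyte-like (2371), 2 for choroid plexus epithelial-like (443), 1 for pericyte-like (458), 52 for endothelial-like (613), 192 for ependymal-like (536) and 12 for fibroblast-like cells (376); fewer genes entered these tests. A filter at 10 CPM gave 83 astrocyte-, 499 microglia- and 1325 oligodendrocyte-like genes, and no filter 1132 astrocyte- and 679 choroid plexus epithelial-like genes. The largest cluster alone gave 112, 442 and 1357 genes in astrocyte-, microglia- and oligodendrocyte-like cells, male cells alone 266, 290 and 1104, and female cells alone 263, 517 and 798. DESeq2 called 217 choroid plexus epithelial-, 179 ependymal- and 203 fibroblast-like genes. With no doublets removed 1365 microglia- and 1260 endothelial-like genes were called. The automatic doublet threshold, which marked 0% of low 2, gave 173 microglia-, 210 choroid plexus epithelial-, 695 pericyte-, 138 endothelial- and 241 fibroblast-like genes. Without the astrocyte-like clusters that carried other RNA, an alternative chosen after seeing the data, 288 genes were called, microglia markers still among them. Where no construction explains a change, the cause was not tested.

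Leaving out 1 library gave 215 to 1084 astrocyte-, 272 to 1225 microglia-, 1291 to 2493 oligodendrocyte-, 110 to 525 choroid plexus epithelial-, 225 to 480 pericyte-, 282 to 748 endothelial-, 200 to 584 ependymal- and 83 to 406 fibroblast-like genes. The lowest counts came without low 1 (astrocyte-, pericyte-like), low 2 (oligodendrocyte-, ependymal-like) or negative 1 (the other 4 classes).

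Some single genes changed direction. In the largest cluster alone P2ry12 (astrocyte-like) was at -0.42, Cdk1 (microglia-like) at -0.24, Htr2c (choroid plexus epithelial-like) at 0.18 and Mgp (fibroblast-like) at -0.12. Cxcl10 in astrocyte-like cells was at 0.41 in male cells alone, and Atp13a5 in oligodendrocyte-like cells at -0.10 with no doublets removed. With 1 library left out at a time, values ran from -3.13 to 0.63 for Cxcl10 (highest without negative 1), and in endothelial-like cells from -2.40 to 0.71 for Myl9, -4.96 to 6.34 for Tagln, -6.20 to 6.85 for Acta2, -10.27 to 8.16 for Hbb-bt, -12.17 to 9.64 for Hba-a2 and -11.18 to 12.17 for Hbb-bs, each positive without negative 1; all but Myl9 are at 0 in negative 2, so those positive values are no estimates of size. They ran from -0.0082 (without low 2) to 3.58 for Gpr34 in oligodendrocyte-like cells, and in fibroblast-like cells from -0.54 (without low 2) to 2.57 for Ttr, -8.81 to 0.00 (without negative 2) for Cd79a and -5.35 to 2.36 (without negative 1) for the difference of Alpl from ATV-TfR; Cd79a is at 0 in both low libraries and Alpl in negative 2, so these values are no estimates of size either.

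Cell numbers limit depth: 83 and 56 endothelial-, 37 and 31 ependymal- and 27 and 21 fibroblast-like cells in the negative bin, and 54 and 89 pericyte-like cells in the low bin. A minimum of 50 cells per library, at most 5% mitochondrial UMIs in fibroblast-like cells, and sex or largest-cluster splits gave no value in classes with too few cells.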
